A study of Mus musculus with 24 samples.

Results

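The alpha-arrestins Arrdc1, Arrdc2, Arrdc3, Arrdc4 and Txnip were followed in mouse liver RNA-seq libraries. All 5 symbols were found among the 46093 distinct gene symbols of both count tables, one table per sex. Arrdc3 was chosen by its measured level in CPM (counts scaled to a common library size), for its rise in null livers on chow, so its chow genotype values below are a description and carry no test. The other members were taken as the rest of the family. Of the 5 members, 4 passed the filter on low counts in each table, among 14873 genes tested in males and 11830 in females. Arrdc2 did not pass in either.

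Alpha-arrestins are adaptor proteins of the cell membrane and of endosomes. They share the arrestin fold with the beta-arrestins, and most carry PPxY motifs that recruit ubiquitin ligases of the NEDD4 family to membrane receptors and transporters, which are then internalised or sorted. Txnip, thioredoxin-interacting protein, binds thioredoxin and limits glucose uptake by promoting internalisation of glucose transporters, and its gene is a well-known target of the glucose-sensing factors ChREBP and MondoA. Arrdc4 is a close relative of Txnip and also a glucose-responsive gene. Arrdc3 is known for its part in beta-adrenergic receptor traffic and in energy balance, and Arrdc1 for the budding of extracellular vesicles with the ESCRT protein Tsg101.

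The 24 liver libraries came from C57BL/6 mice and formed 8 groups of 3. Male and female mice that were wild type (WT) or Cyp2b9/10/13-null were kept for 10 weeks on normal chow (ND) or on a diet with 60% fat (HFD). The null genotype lacks Cyp2b9, Cyp2b10 and Cyp2b13, cytochrome P450 genes that metabolise drugs and fatty acids, and all groups share strain, tissue and feeding time. Age, fasting before collection and any pooling of animals were not stated, and nothing ties a library to its own animal, so the p-values describe spread among libraries that may be technical. The series asked what loss of Cyp2b does to the liver transcriptome under high-fat feeding.

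Groups follow the sample titles. In 6 female libraries, the 3 titled WT on HFD and the 3 titled KO on ND, the genotype field of the labels states the opposite of the title. The targeted genes of females sided with the titles. Cyp2b13 gave 565 to 1138 counts in WT and 0 in all null libraries, which allows up to 3 counts, and Cyp2b9 gave 788 to 1245 against 0 to 17. In males they did not settle the label. Cyp2b9 ran from 1 to 797 counts in WT and from 19 to 85 in the labelled-null libraries, and Cyp2b13 from 23 to 85 against 7 to 89. Male animals are therefore called labelled null throughout.

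Depth was 8.28 to 20.2 M counts per library in males and 2.01 to 2.66 M in females. The male labelled-null ND library 1 stood apart: 32.0% of its counts were mitochondrial, against at most 7.76% in the other 11 male libraries, and its median Spearman correlation with them was 0.80. Among females the WT ND library 1 stood apart, with a mitochondrial share of 13.96%, where no other female library exceeded 8.54%, and with the lowest median Spearman correlation, 0.883. It holds the lowest female Arrdc3 and Txnip values, so results that rest on it are also given without it. Summed hepatocyte markers (7 of 8 found, none at 0) were 118075 to 153501 CPM in male WT ND livers and 43539 to 87818 CPM in the labelled-null ND livers, without overlap. In females the same sums were 96168 to 106342 CPM in WT ND and 89037 to 129449 CPM in null ND livers, which overlapped. In bulk tissue, fewer cells of a type and less RNA per cell cannot be told apart.

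The members lie on 5 chromosomes, in GRCm38 coordinates with the GENCODE M21 annotation, and all are protein coding. Arrdc3 spans chr13:80883384-80896042 on the plus strand, with 6266 exonic bases. Txnip spans chr3:96557957-96561883 on the plus strand, with 3123 exonic bases. Arrdc4 spans chr7:68736995-68749241, Arrdc1 chr2:24925352-24935252 and Arrdc2 chr8:70835129-70839720, all on the minus strand. Txnip lies wholly inside the antisense gene Gm15441 (chr3:96555765-96566801, minus strand), and Arrdc3 overlaps 1700023H06Rik (chr13:80884224-80885524, minus strand), which was not analysed here.

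The 250 bases before the annotated start are shown for Txnip, Arrdc3 and Arrdc4, the members with the highest levels in these livers, because they differ in the sequence elements that glucose-sensing factors are known to bind. The sequences are RefSeq's on GRCm38.p6, 5′ to 3′ on the gene's strand. Capitals mark matches, on either strand, to 4 motifs: the E-box CACGTG; 2 copies of CACGNG with 5 bases between them, the arrangement known for carbohydrate response elements; the CCAAT box; and the forkhead site GTAAACA. The motifs were chosen after the promoters had been read. The windows are chr3:96557707-96557956 (Txnip, plus strand), chr13:80883134-80883383 (Arrdc3, plus strand, 1 of its 3 start sites) and chr7:68749239-68749488 (Arrdc4, minus strand).
Txnip: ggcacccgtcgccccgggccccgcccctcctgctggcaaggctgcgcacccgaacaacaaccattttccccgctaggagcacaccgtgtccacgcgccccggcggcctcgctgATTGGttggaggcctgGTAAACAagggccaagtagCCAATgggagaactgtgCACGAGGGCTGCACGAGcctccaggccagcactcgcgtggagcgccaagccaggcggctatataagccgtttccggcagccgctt
Arrdc3: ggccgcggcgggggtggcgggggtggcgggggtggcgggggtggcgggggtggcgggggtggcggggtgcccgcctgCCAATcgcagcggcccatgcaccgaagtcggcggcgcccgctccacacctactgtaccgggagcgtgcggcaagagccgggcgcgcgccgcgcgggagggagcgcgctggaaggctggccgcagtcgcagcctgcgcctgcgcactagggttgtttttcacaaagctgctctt
Arrdc4: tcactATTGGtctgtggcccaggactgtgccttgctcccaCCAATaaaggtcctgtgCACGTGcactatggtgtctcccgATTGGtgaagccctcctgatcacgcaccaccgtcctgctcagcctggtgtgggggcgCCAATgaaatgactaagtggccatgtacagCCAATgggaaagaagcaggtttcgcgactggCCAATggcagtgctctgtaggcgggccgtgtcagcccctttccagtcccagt

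The Txnip window holds the paired element 85 to 69 bases before the start, a pattern found in 0.0457% of 32851 promoter windows of 27025 genes. It also holds 2 CCAAT boxes, a motif of 33.8% of windows, and a forkhead site 121 to 115 bases before the start, a motif of 3.17%. The Arrdc4 window holds 1 E-box (6.02% of windows), 193 to 188 bases before the start, and 6 CCAAT boxes. The Arrdc3 window holds 1 CCAAT box and none of the other 3 patterns. These matches describe letters in a window and say nothing of binding.

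Compared per length of exonic sequence, Arrdc3 and Txnip were the abundant members. In females Arrdc3 had a lowest, median and highest level of 8.79, 31.8 and 51.3 CPM per kb, and Txnip of 12.6, 32.4 and 112 CPM per kb. Both lay above Arrdc4 (median 6.22 CPM per kb) in 12 of 12 female libraries, and Arrdc4 above Arrdc1 (median 1.34 CPM per kb) in 12 of 12. In males the medians were 42.6 CPM per kb for Arrdc3, 63.3 for Txnip, 3.16 for Arrdc4 and 1.68 for Arrdc1. Both leading members again exceeded Arrdc4 in 12 of 12 libraries, and Arrdc4 exceeded Arrdc1 in 10 of 12. Arrdc3 exceeded Txnip in 4 of 12 female and 3 of 12 male libraries, so their order was not constant. Female levels of Txnip carry a limit, since its reads and those of the antisense gene Gm15441 cannot be told apart there. Arrdc2 had 0 counts in all 12 female libraries, which allows up to 3 counts in each, and 0 to 18 counts in males, where 2 rows of that symbol were summed.

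**Figure D1:**
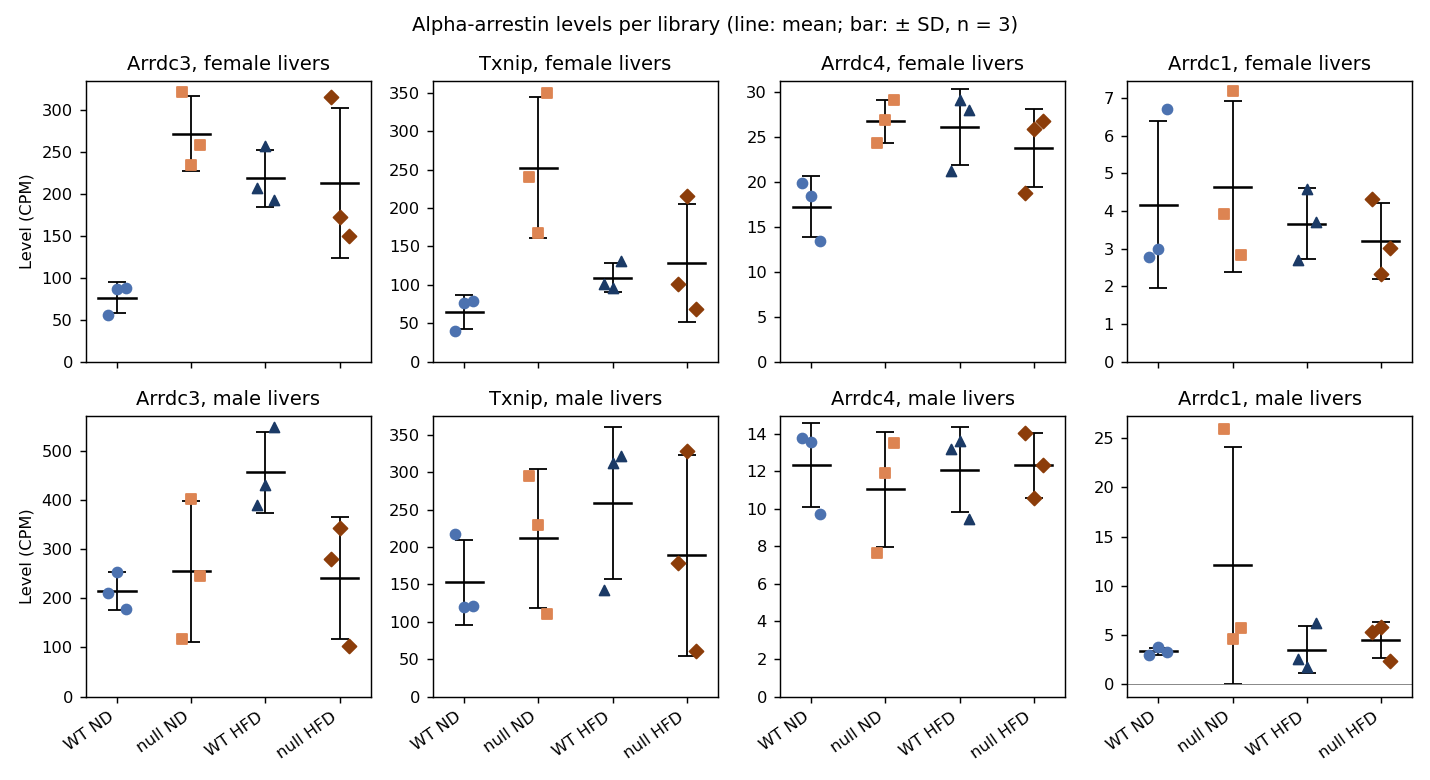
Level of the 4 members that passed the filter in each library (points, CPM on a linear axis from 0), by sex (rows) and group; lines are means and bars ± SD, n = 3, and null in males means labelled null. Female WT ND livers hold the lowest 3 values of Arrdc3, at most 87.3 CPM, while the 9 other female libraries lie at 149.7 CPM or above.

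Arrdc3 was lowest in female WT chow livers. Its levels there were 55.1, 86.8 and 87.3 CPM, against 321, 235 and 259 CPM in null ND, 207, 257 and 192 CPM in WT HFD and 315, 173 and 149.7 CPM in null HFD livers. The 3 WT ND libraries lay below all 9 others, as they did for 112 of the 11830 genes tested, while the other 3 groups overlapped one another. Means ran from 76.4 ± 18.5 CPM (SD, n = 3) in WT ND through 213 ± 89.5 in null HFD and 219 ± 33.7 in WT HFD to 272 ± 44.6 in null ND, and only the step from WT ND to the next group exceeded the spread. The fitted chow genotype difference was 1.83 ± 0.28 (SE) on the log2 scale, a description of how the gene was chosen, and 1.64 without the WT ND library 1.

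Male Arrdc3 had another order. It was 211, 254 and 177 CPM in WT ND, 116, 403 and 244 CPM in labelled-null ND, 389.7, 429.5 and 548 CPM in WT HFD and 280.3, 342 and 103 CPM in labelled-null HFD livers. Means ran from 214 ± 38.7 CPM in WT ND through 242 ± 124 in labelled-null HFD and 254 ± 143 in labelled-null ND to 456 ± 82.3 in WT HFD (SD, n = 3). Neighbours in this order overlapped, the labelled-null ND and WT HFD groups included. The chow genotype difference was 0.25 ± 0.47 on the log2 scale, 0.60 without the library of high mitochondrial share and -0.28 without the labelled-null ND library 2.

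Txnip was higher in female null than WT livers on chow, in all 3 against all 3 libraries. WT ND livers had 39.4, 76.9 and 78.9 CPM and null ND livers 240.1, 167 and 350 CPM, so the groups did not overlap. The means were 65.1 ± 22.3 and 252 ± 92.0 CPM (SD, n = 3). The log2 difference was 1.95 ± 0.41 (SE), with a 95% interval from 1.06 to 2.85 and a p of 0.000397. It missed the threshold of 0.05 after adjustment over all genes (edgeR quasi-likelihood test, Benjamini-Hochberg adjusted p = 0.117). DESeq2, run as an alternative, gave 1.97 with an adjusted p of 0.000871. Over all its alternatives the adjusted p ran from 1.1e-10 to 0.458, and without the WT ND library 1 or the null ND library 3 the difference was 1.70 or 1.65.

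Arrdc4, the close relative of Txnip, also lay higher in female null chow livers, at 24.3, 26.9 and 29.1 CPM against 19.9, 18.5 and 13.4 CPM. The groups did not overlap, but the log2 difference of 0.64 ± 0.24 had an edgeR adjusted p of 0.599. Arrdc1, with 5 to 16 counts per female library, differed by 0.13 ± 0.52. Without the WT ND library 1 the Arrdc4 difference was 0.75. On female chow, edgeR called 0.127% of all genes tested at an adjusted p under 0.05 (0.0676% higher) and 0 of the 3 members other than Arrdc3. An unadjusted p under 0.05 was reached by 6.33% of genes and by Txnip and Arrdc4, and 5.18% of genes and the same 2 members lay higher without overlap. Arrdc3 is left out of these counts because it was chosen on this contrast.

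The higher levels of these members came in livers that also differed in immediate early genes, which respond within minutes to stimulation and handling. Their summed level (8 of 8 found, none at 0) was 263 to 859 CPM in female WT ND and 1621 to 2670 CPM in null ND livers, without overlap. All 8 lay higher without overlap, with a median log2 difference of 2.42, and 0 of 8 passed the edgeR test. On HFD the sums overlapped, at 90.8 to 1844 CPM in WT and 209.7 to 2206 CPM in null livers. The part of this difference in the results for Arrdc3, Txnip and Arrdc4 was not tested. Female hepatocyte marker sums overlapped between these groups, and the adipocyte and muscle markers were at 0 in all 6 of their libraries.

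The counts of Txnip and of its antisense partner moved together in females. In the 12 female libraries Gm15441 had 86.3 to 113 counts for each 100 counts of Txnip, and in the 12 male libraries 0 to 1.41. In female WT ND livers the libraries had 93, 136 and 202 counts of Gm15441 beside 85, 154 and 188 of Txnip. Gm15441 was 43.1 to 84.8 CPM in female WT ND and 152 to 355 CPM in null ND livers, a log2 difference of 1.95 (edgeR adjusted p = 0.109), the same size as that of Txnip. The library kits differed between the sexes, and whether counting used the strand is not stated, so reads of both genes cannot be told apart in females. With both genes summed, an alternative added after seeing the data, the female chow difference was 1.95 with an edgeR adjusted p of 0.11.

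Female null and WT livers on HFD did not differ detectably in any member. Txnip was 102, 95.4 and 131 CPM in WT HFD and 101, 216 and 68.6 CPM in null HFD livers, which overlapped. The log2 differences were -0.04 for Arrdc3 (95% interval -0.62 to 0.54), 0.23 for Txnip (-0.63 to 1.09), -0.13 for Arrdc4 and -0.17 for Arrdc1, all with an edgeR adjusted p of 1. Calls numbered 0 of 4 members against 0.0169% of all genes, and at an unadjusted p under 0.05 they numbered 0 of 4 against 2.44%.

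In female WT mice each HFD library had more Arrdc3 than each chow library. The log2 difference was 1.51 ± 0.28, and 1.33 without the WT ND library 1. It is a description too, since the WT ND libraries are part of what chose the gene. Txnip differed by 0.75 ± 0.41 (edgeR adjusted p = 1), or 0.49 without that library, and Arrdc4 by 0.60 ± 0.24 (adjusted p = 1), both also without overlap. Of the 3 members other than Arrdc3, 0 were called, against 0.0169% of all genes, and 2 lay higher without overlap, against 3.89%. An unadjusted p under 0.05 was reached by Arrdc4 and by 3.48% of genes. Summed hepatocyte markers were lower without overlap on HFD, at 88846 to 93749 CPM against 96168 to 106342 CPM. By gene, 4 of 7 lay higher and 3 lower, 1 of these without overlap, with a median log2 difference of 0.000227. Among all 11830 genes tested, 470 were lower without overlap. Summed adipocyte and muscle markers were 0 CPM in all WT ND livers and 0 to 94.0 CPM in WT HFD livers. The part of either in these values was not tested. This comparison shares the WT ND libraries with the chow genotype comparison and is not separate evidence for them.

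In female nulls, where chow levels were already high, Txnip was lower on HFD by 0.98 ± 0.40 on the log2 scale, with an unadjusted p of 0.0293, overlapping groups and an edgeR adjusted p of 0.963. With a library left out the value ran from -1.57 (null HFD library 2) to -0.67 (null ND library 3). Arrdc3 differed by -0.35 ± 0.27, a description because the null ND libraries are part of what chose the gene. Markers of Kupffer cells, the macrophages of the liver, moved in the same contrast, with sums of 133 to 254 CPM on ND and 277 to 415 CPM on HFD. All 6 lay higher on HFD, with a median of 0.78 and 0 called. Of these 3 lay higher without overlap, as did 731 of all 11830 genes tested. Endothelial marker sums were 145 to 173 CPM on ND and 101 to 129.9 CPM on HFD. The part of either in the Txnip value was not tested. No gene was called (0%), the members included. An unadjusted p under 0.05 was reached by 4.8% of genes and, among the members other than Arrdc3, by Txnip alone. The diet effect in nulls minus that in WT was -1.72 ± 0.57 for Txnip (unadjusted p = 0.0097, edgeR adjusted p = 1). For Arrdc4 it was -0.77 ± 0.33 (unadjusted p = 0.0356, edgeR adjusted p = 1). For Arrdc3 it was -1.87 ± 0.39, a description because it holds the contrast of choice. Again 0% of genes passed, and 2.89% had an unadjusted p under 0.05.

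**Figure D2:**
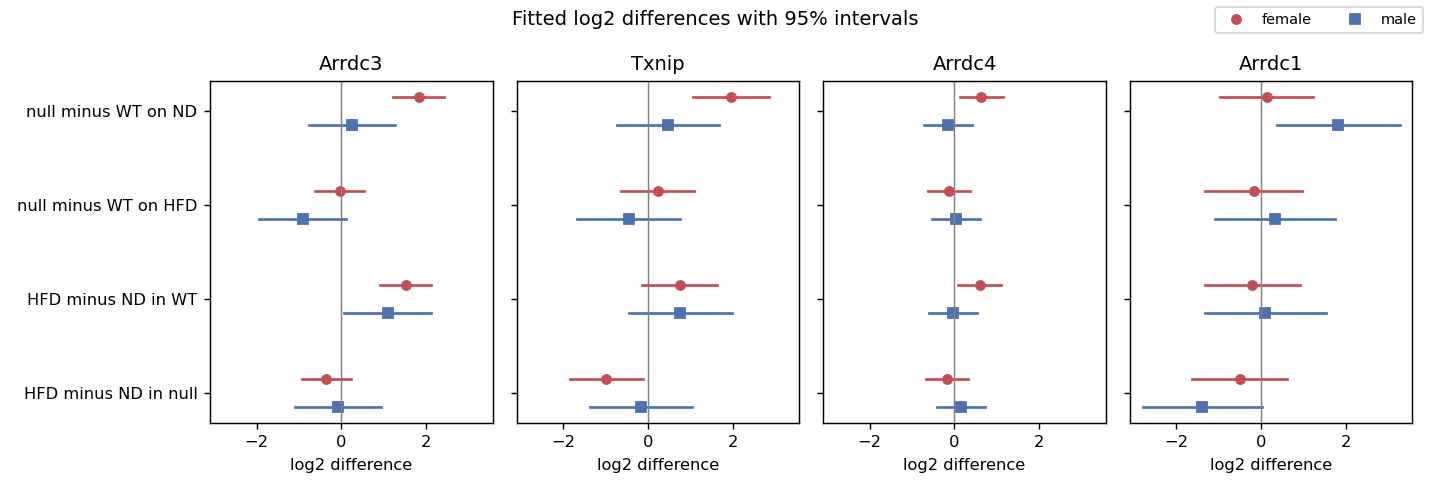
Fitted log2 differences of each member (horizontal axis; points with 95% intervals) for the genotype and diet contrasts (rows), by sex; null in males means labelled null. Female Txnip lies at 1.95 on chow, with an interval above 0, and its interval includes 0 for the genotype difference on HFD. Values of Arrdc3 in contrasts that use chow libraries are a description.

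In males the fitted genotype difference of Arrdc3 on HFD was negative, where the female one was -0.04. The 3 labelled-null HFD libraries, at 103 to 342 CPM, lay below the 3 WT HFD libraries, at 389.7 to 548 CPM. The log2 difference was -0.92 ± 0.47, with a 95% interval from -1.94 to 0.10 and an edgeR adjusted p of 1. It was -0.55 without the labelled-null HFD library 3, whose level was the 103 CPM. Of all genes 3.6% were lower without overlap, and 1 of 4 members. Txnip, at 142, 313 and 321 CPM in WT HFD against 178, 328 and 60.7 CPM in labelled-null HFD, differed by -0.45 ± 0.56 and overlapped. No gene was called here (0%), and 2.12% of genes and 0 of 4 members had an unadjusted p under 0.05.

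High-fat feeding of male WT mice gave a difference of Arrdc3 of 1.09 ± 0.47 (95% interval 0.07 to 2.11), without overlap. The WT ND libraries belong to the chow genotype comparison too, so its unadjusted p of 0.0387 and edgeR adjusted p of 0.745 are a description. Without overlap in the higher direction were 12.9% of all genes and 1 of 4 members, Arrdc3 itself, which shows nothing particular to the members. Hepatocyte markers moved in the same contrast, with sums of 118075 to 153501 CPM on ND and 90164 to 108215 CPM on HFD. By gene 7 of 7 lay lower, 4 without overlap, beside 1508 of all 14873 genes tested that were lower without overlap. The part of these markers in the result was not tested. Txnip differed by 0.76 ± 0.56 (adjusted p = 0.888). Among all genes 0% passed and 6.49% had an unadjusted p under 0.05. In labelled-null males the diet difference was -0.07 ± 0.46 for Arrdc3 and -0.16 ± 0.56 for Txnip, and 0.15 for Txnip without the library of high mitochondrial share. There 0% of genes passed, 11.1% had an unadjusted p under 0.05, and 0 of the members other than Arrdc3 did. The male interaction was -0.93 ± 0.79 for Txnip (edgeR adjusted p = 0.895) and, as a description, -1.17 ± 0.66 for Arrdc3. There too 0% of genes passed, and 4.65% of genes and 0 of the members other than Arrdc3 had an unadjusted p under 0.05.

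On male chow, Txnip was 218, 119.5 and 120.5 CPM in WT and 295, 229 and 111 CPM in labelled-null livers, a log2 difference of 0.47 ± 0.56 (edgeR adjusted p = 0.65), and of 0.16 without the library that stood apart. Arrdc1 was 3.03, 3.79 and 3.25 CPM in WT ND and 26.0, 4.62 and 5.69 CPM in labelled-null ND livers. The value of 26.0 belongs to that same library. The log2 difference of Arrdc1, 1.82 ± 0.67 (adjusted p = 0.22), was 0.62 without it, and its diet difference in labelled-null males, -1.38 ± 0.65 (adjusted p = 0.454), was -0.18. Calls on male chow covered 0.0134% of genes and 0 of the members other than Arrdc3. Higher without overlap were 10.3% of genes and 1 of those members, Arrdc1. At an unadjusted p under 0.05 were 18.6% of genes and the same member. Arrdc4 was 7.63 to 14.0 CPM over all male libraries.

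The effects were compared between the sexes in a joint model of all 24 libraries, where sex goes together with extraction, kit and depth. The female minus male difference of the chow genotype effect was 1.48 ± 0.72 for Txnip (unadjusted p = 0.052, edgeR adjusted p = 0.431) and 0.79 ± 0.36 for Arrdc4 (adjusted p = 0.405). It passed for no tested member, against 0.0332% of 15043 genes. For Arrdc3 it was 1.58 on the log2 scale, a description. Its diet effect in WT differed between the sexes by 0.44 ± 0.56, a description too because it uses chow libraries. The genotype effect of Arrdc3 on HFD differed by 0.87 ± 0.56 (edgeR adjusted p = 1). Genes called were 0.00665% and 0.0133%, in that order.

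The levels of Arrdc3 and Txnip were compared across libraries in each table, and with all libraries neither relation passed 0.05 after adjustment. The chow libraries that chose Arrdc3 are among them, so the permutation p-values of this pair are a description. Over 12 female libraries Pearson's r of log2 CPM was 0.71 (permutation p = 0.00904, adjusted over 12 relations 0.0717) and Spearman's rho 0.71 (permutation p = 0.0119, adjusted 0.142). It was 0.48 without the 2 libraries farthest in Arrdc3, and 0.23 after removal of group means, so most of the female relation lay between groups. Over 12 male libraries r was 0.54 (permutation p = 0.0716, adjusted 0.209) and rho 0.59 (permutation p = 0.045, adjusted 0.27), with 0.67 without the farthest 2 and 0.45 after removal of group means. Without the male library of high mitochondrial share r was 0.82 (permutation p = 0.00206, adjusted over 6 relations 0.0124), rho 0.75 (permutation p = 0.0112, adjusted 0.0673), and r after removal of group means 0.85. Among the other 10 relations between members none had an adjusted p under 0.05, the lowest being Arrdc1 and Arrdc4 in males (r = -0.72, permutation p adjusted 0.0717), which was -0.35 without that same library (adjusted 0.573).

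**Figure D3:**
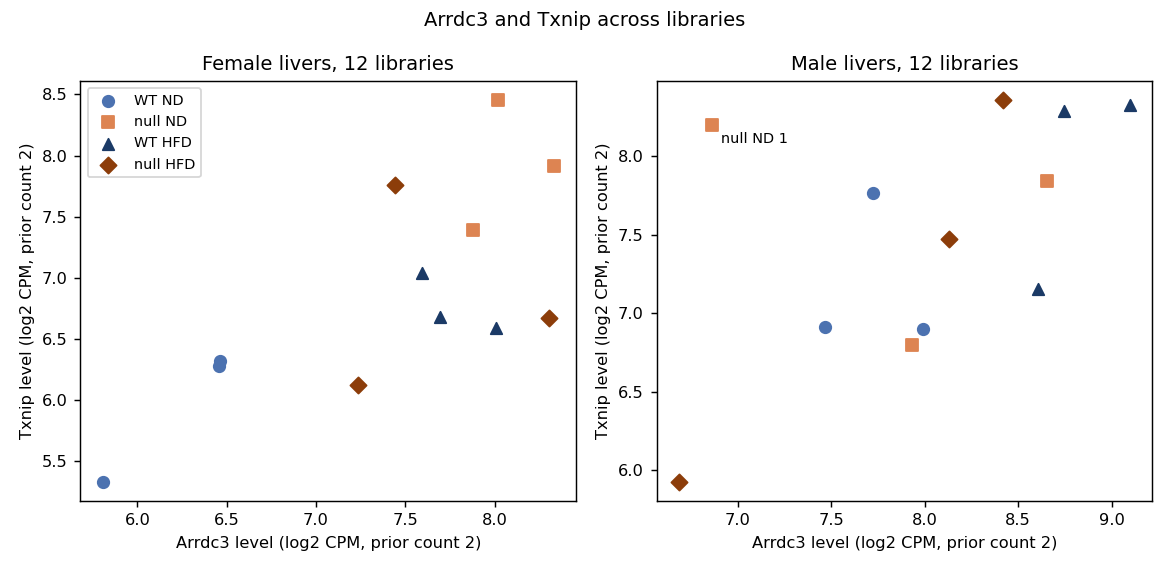
Txnip against Arrdc3 per library (both in log2 CPM with a prior count of 2), females and males in separate panels, with groups by colour; null in males means labelled null. In females the WT ND libraries lie lowest in Arrdc3 but not all lie lowest in Txnip. There null HFD library 3 (6.12) lies below WT ND libraries 2 (6.28) and 3 (6.32). Pearson's r is 0.71 in females and 0.54 in males, over 12 libraries each.

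The genes whose levels ran most like a member were ranked by r over the 12 libraries of each table, as a description of shared libraries with no test. For Arrdc3 the closest in both tables included Nceh1 (r = 0.87 in females, 0.79 in males), which hydrolyses cholesterol esters, Osbpl1a (0.71 and 0.80), an oxysterol-binding protein relative, Hykk (0.76 and 0.74), a hydroxylysine kinase, and Rcl1 (0.72 and 0.72), a ribosome assembly factor. In females alone Eef1a1, a translation elongation factor, led with 0.93, followed by Fam185a, Asgr1, Pamr1 and Nceh1 at 0.87 to 0.89. The male r of these genes was 0.40, 0.57, 0.07, -0.33 and 0.79, in that order. In males alone Arhgap29 and Magi3 led with 0.91, followed by Bdp1, Cep170 and Zfp609. The female r of these genes was 0.52, -0.21, -0.39, 0.20 and 0.51, in that order. Txnip ran closest in both tables to Rgs16 (0.86 and 0.89), a regulator of G-protein signalling, Slc25a47 (0.90 and 0.75), a liver mitochondrial carrier, Ppp1r3g (0.86 and 0.73), a glycogen-targeting phosphatase subunit, Jun (0.77 and 0.72), an immediate early gene, and Irs2 (0.71 and 0.70), an insulin receptor substrate. Of the 5 closest genes in both tables to each member, 3 were kept without the male library of high mitochondrial share, and of the 5 closest in males alone 2 were kept for Arrdc3 and 1 for Txnip.

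No partner of the alpha-arrestins passed the test on female chow, where the median log2 difference of all genes was -0.02. Of 9 tested NEDD4-family ligases and adaptors, 3 lay higher and 6 lower, 0 passed the test and the median was -0.04. Nedd4l, the ligase with the smallest p, was 61.8 ± 4.52 CPM in WT and 44.4 ± 12.2 CPM in null livers, without overlap (edgeR adjusted p = 0.824). Of 8 ESCRT partners, 7 lay higher with a median of 0.15, and the smallest p belonged to Chmp4b, a filament subunit of the budding machinery, at 41.3 ± 4.56 and 52.6 ± 4.62 CPM (adjusted p = 0.867). The beta-arrestin Arrb2 was 6.42 ± 2.08 and 11.2 ± 2.41 CPM, higher without overlap (unadjusted p = 0.0493, adjusted p = 0.783), and Arrb1, the other tested, 9.94 ± 2.23 and 9.80 ± 1.77 CPM.

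Among the receptors and transporters that alpha-arrestins are reported to carry, 6 of 10 were tested, 3 higher and 3 lower, with a median of -0.03. The insulin receptor Insr was 94.7 ± 0.97 CPM in female WT ND and 121 ± 7.59 CPM in null ND livers, without overlap (edgeR adjusted p = 0.815). In the thioredoxin system, whose reduced thioredoxin Txnip binds, 7 of 9 tested genes lay higher with a median of 0.07. None had groups without overlap. Txnrd2, the mitochondrial thioredoxin reductase, had the smallest p (0.46 ± 0.28, adjusted p = 0.852).

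The glucose-sensing list holds factors of the ChREBP and MondoA family and genes they are known to induce. Of its 11 tested genes 8 were higher and 3 lower on female chow, 0 passed the test and the median was 0.35. Groups did not overlap for 5, all higher, against 5.18% of all genes. They were named after their values were seen: the hormone Fgf21 (0.627 ± 0.322 to 8.33 ± 5.55 CPM, log2 difference 3.66 ± 0.86, edgeR adjusted p = 0.144), Klf10 (21.7 to 54.8 CPM, adjusted p = 0.226), the liver pyruvate kinase Pklr (143 to 222 CPM, adjusted p = 0.522), the triokinase Tkfc (adjusted p = 0.678) and the ketohexokinase Khk (adjusted p = 0.824). At the female depth the WT level of Fgf21 lies near the floor, so its log2 difference rests on few counts. The factors themselves, Mlxipl, Mlxip and Mlx, had log2 differences of -0.07, -0.18 and -0.49.

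FOXO and fasting genes gave 8 of 12 higher and 4 lower on female chow, with a median of 0.38 and 0 calls. Groups did not overlap for 3, all higher, against 5.18% of all genes. Those without overlap, named after their values were seen, were Trib1, a pseudokinase (28.0 ± 23.5 to 96.6 ± 33.8 CPM, edgeR adjusted p = 0.74), Irs2 (8.19 ± 5.98 to 27.5 ± 7.33 CPM, adjusted p = 0.818) and Igfbp1, an insulin-like growth factor binding protein (93.5 ± 62.5 to 494 ± 221 CPM, adjusted p = 0.801). The glucocorticoid list was split, with 6 of 12 higher and 6 lower. Without overlap 1 of its genes lay higher and 3 lower, against 613 and 722 of all 11830 genes tested. A single gene of the list was called, and fell. Tsc22d3, a glucocorticoid-induced leucine zipper, went from 109 ± 24.5 to 38.8 ± 4.83 CPM, a log2 difference of -1.48 ± 0.21 (edgeR adjusted p = 0.00679). With the null ND library 2 left out, 0 genes of these lists passed on female chow. No other gene of the 8 pathway lists was called by edgeR in any genotype or diet contrast of either table with all libraries.

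**Figure D4:**
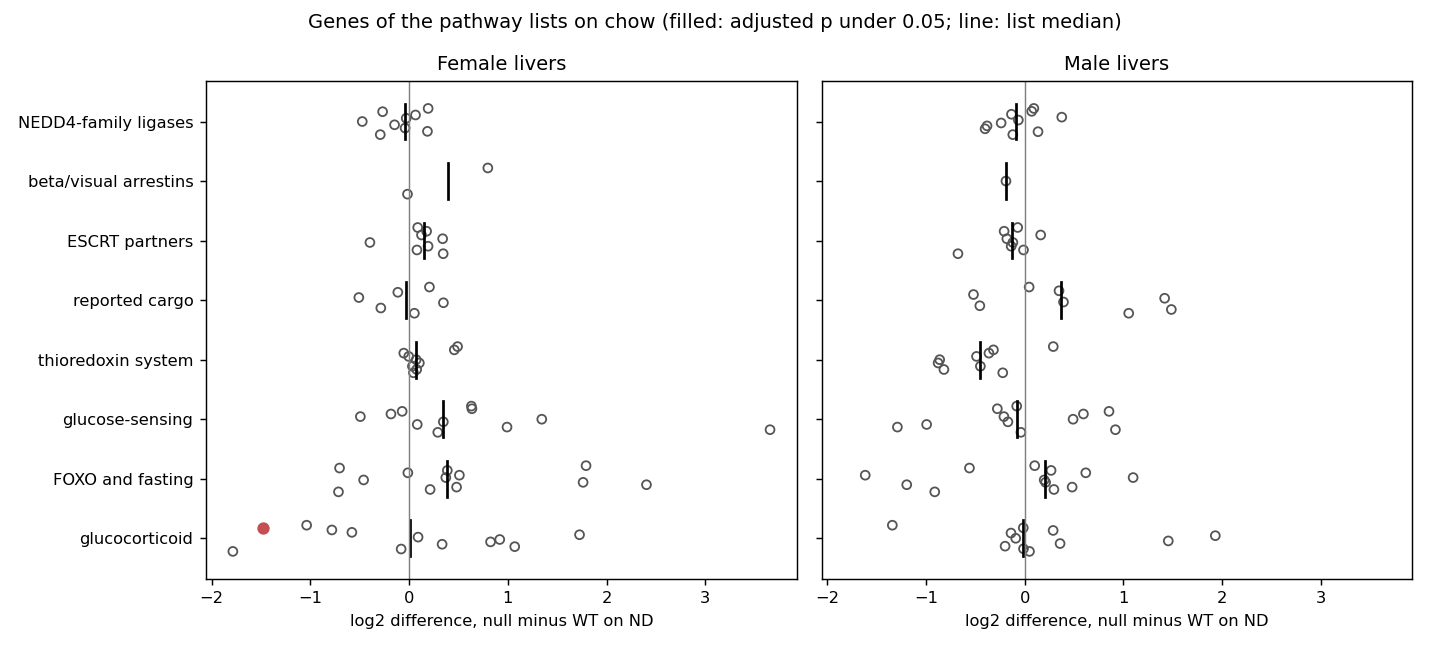
Log2 difference of null minus WT on ND for each tested gene of the pathway lists (points; filled where the adjusted p is under 0.05) with the list median as a line, females left and males right; null in males means labelled null. In females the medians of the glucose-sensing (0.35) and FOXO (0.38) lists lie right of 0; in males the thioredoxin list lies left of 0, at -0.45.

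On male chow the lists differed from this, in groups whose hepatocyte marker sums did not overlap. Of 9 thioredoxin system genes 8 lay lower, 6 without overlap against 12.5% of all genes, with a median of -0.45 beside 0.06 over all genes. The antioxidant enzyme Prdx5 had the smallest p, at 195 ± 13.9 CPM in WT and 107 ± 43.7 CPM in labelled-null livers (edgeR adjusted p = 0.226). The glucose-sensing list had 4 of 11 higher and a median of -0.08, with Gpd1, a glycerol-phosphate dehydrogenase, at 505 ± 89.0 and 254 ± 144 CPM (adjusted p = 0.247). FOXO and fasting genes had 8 of 12 higher with a median of 0.20, and the smallest p belonged to Cited2 (-0.91 ± 0.37, adjusted p = 0.24). In the glucocorticoid list, with 5 of 11 higher and a median of -0.01, Zbtb16, a zinc finger repressor, was 30.9 ± 10.8 and 12.3 ± 4.07 CPM (adjusted p = 0.192). The NEDD4 list had 4 of 10 higher with a median of -0.09, the ESCRT list 1 of 8 with -0.13, and the cargo list 6 of 8 with 0.37, led by the beta-adrenergic receptor Adrb3 (1.49, adjusted p = 0.223). The part of the mitochondrial share and of the hepatocyte markers in these values was not tested.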

How the data were processed

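Liver RNA-seq of 24 mouse samples was analysed from 2 deposited tables, 1 per sex, of raw read counts per gene that the authors made. Per the submitters' processing notes the reads were handled with FastQC, Trimmomatic, GSNAP, Subread and edgeR on GRCm38.p5; their order, versions and strand setting were not stated. The labels' protocols give an RNeasy Plus Universal extraction and TruSeq Total RNA libraries for males, and a Trizol extraction and NEB Next Ultra RNA libraries for females. Rows sharing a symbol were summed (1806 symbols in males, 2 in females). Another 25 symbols read as dates and held at most 0.160% of counts.

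edgeR 4.0.16 (R 4.3.3) was run per table: filterByExpr by group, TMM scaling, 1 term per group, robust quasi-likelihood test, Benjamini-Hochberg adjustment over all genes tested, and calls at an adjusted p under 0.05. CPM use TMM-scaled library sizes. The pipeline was tested on simulated data. Alternatives were DESeq2 1.42.0, other scaling, no filter, other sample sets, a replicate block, a term for the side of the leading principal component, and each library left out. Correlations used 100000 permutations (scipy 1.17.1).

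Members and lists were chosen with earlier results of these data known. Besides the members, each list's called gene is named, or otherwise its gene of smallest p on chow, and the 5 genes of highest r; 1 gene of the last kind is not reported here. Same-numbered libraries deviated together in every pair (r over 0.1) only for WT ND and WT HFD, r 0.11 to 0.13 in males and 0.14 to 0.56 in females. For diet in labelled-null males r was 0.198, 0.167 and -0.0775. Libraries of different numbers were not compared, so no pairing is shown.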

Additional observations from a re-analysis of the deposited data

How the results depend on the processing

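Alternatives were labelled for the members' counts of calls, the genotype differences of Arrdc3 and Txnip within each sex, their group levels and their r. Of these values 562 were labelled the same, 14 moved, 3 newly passed and 4 changed sign. The same meant within a set ratio for counts, within the spread for levels, and otherwise direction and side of the threshold. Arrdc3 on ND was judged by the spread alone, so its changes of sign or side of the threshold are not among these numbers. The cause of each change below was not tested. Arrdc3 was chosen on female chow, so counts of calls that include it describe the settings and support nothing. In the female chow genotype comparison the members called numbered 1 with Arrdc3 and 0 without it, and with Arrdc3 2 with no filter on low counts, 2 with DESeq2, 0 with the replicate block, and 0 to 1 with a library left out. All genes called there numbered 15, against 121 with no filter, 76 with DESeq2, 43 with the side term, 21 with the compared groups alone, 8 with the block and 5 to 12 with a library left out; on male chow they numbered 2, against 427 with DESeq2, 35 with no filter, 0 with the compared groups alone, 1 with the block, 724 without labelled-null library 2 and 7 without library 1. For Txnip on female chow the log2 difference was 1.95 (adjusted p 1.1e-10) with no filter and 1.97 (0.000871) with DESeq2, the only alternatives in which it passed. For high-fat feeding of female WT mice, members called were 0, and 1 (Arrdc3) with no filter, DESeq2 and the side term. For the female interaction, members called were 0, and 2 with no filter, 1 with DESeq2 and 1 with the side term, Arrdc3 among them each time. Same-numbered libraries deviated together in every pair only for high-fat feeding of WT mice, where the block left 0 members called in either sex. Libraries of different numbers were not compared, so this does not show that the samples were paired. The female minus male diet difference of Txnip in WT, -0.01, was 0.00784 with RLE scaling, 0.00801 with DESeq2 and 0.000182 with the compared groups alone. The male r of Arrdc3 and Txnip was 0.82 without labelled-null ND library 1. With a library left out, these uncalled log2 differences changed sign. In males, Arrdc3 ran from -0.28 to 0.60 for genotype on ND. Arrdc4 ran from -0.34 to 0.046 for genotype on ND, -0.13 to 0.13 for genotype on HFD, -0.18 to 0.10 for diet in WT, -0.044 to 0.31 for diet in labelled nulls and -0.0078 to 0.37 for the interaction; Arrdc1 from -0.64 to 0.41 for diet in WT; and, for diet in labelled nulls, Txnip from -0.82 to 0.27 and Arrdc3 from -0.42 to 0.42. In females, Arrdc1 ran from -0.32 to 0.67 for genotype on ND, -0.44 to 0.019 for genotype on HFD, -0.42 to 0.32 for diet in WT and -0.83 to 0.15 for the interaction, and for genotype on HFD Arrdc3 ran from -0.44 to 0.17, Arrdc4 from -0.26 to 0.013 and Txnip from -0.37 to 0.55. Female minus male, the diet effect in WT ran from -0.36 to 0.21 for Txnip and -0.60 to 0.45 for Arrdc1, that in nulls from -0.35 to 1.501 for Arrdc1 and -0.68 to 0.11 for Arrdc3, and the interaction from -0.040 to 1.81 for Arrdc1. Depth limits Arrdc1 in females, with 5 to 16 counts.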
